A study of Mus musculus with 4 samples.

Results

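Fibroblast growth factor (FGF) signalling genes were examined in mouse embryonic stem cells (ESCs) with and without an edit in *Zfp296*. The set held 10 genes, found by symbol in the 4 count files among 48526 Ensembl gene identifiers: the ligand *Fgf4*, the receptors *Fgfr1* and *Fgfr2*, the feedback inhibitors *Spry2*, *Spry4*, *Dusp6* and *Dusp4*, and the transcription factors *Etv4*, *Etv5* and *Egr1*. The libraries labelled WT (n = 2) are given as R1 ESCs, an established mouse line, and the libraries labelled KO2 (n = 2) as ZFP296 CRISPR KO clone 2 R1 ESCs. KO2 is thus 1 monoclonal line, made with a guide RNA against the first exon of *Zfp296* and puromycin selection, and an effect of the edit and a property of this clone cannot be told apart. According to the methods, R1 ESCs were kept on gelatine in serum medium with LIF, the MEK inhibitor PD0325901 and the GSK3 inhibitor CHIR99021, and no difference in medium between the groups is given. RNA-seq reads were counted per gene, and the deposited raw counts were analysed here.

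In the FGF pathway, a secreted ligand binds a receptor tyrosine kinase with heparan sulphate as a cofactor. The receptor then signals through adaptors, RAS and MEK to the kinase ERK. Active ERK turns on immediate early genes such as *Egr1* and the ETS factors *Etv4* and *Etv5*, together with inhibitors that limit the signal, among them the Sprouty proteins and the dual-specificity phosphatases. In mouse ESCs, *Fgf4* is known as the main autocrine ligand, the pathway is known for priming cells for differentiation, and MEK inhibitors are used to hold cells in the naive state. *Fgfr2* is known as a receptor gene of the extraembryonic lineages, the primitive endoderm and the trophoblast.

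Counts on genes summed to between 2829914 and 4334499 in the libraries labelled WT and to between 7437294 and 7470907 in those labelled KO2, so that the depth was confounded with the group. Levels are given as CPM (counts scaled to the library's total with edgeR's TMM factors), and 3 counts correspond to 0.380 to 1.12 CPM depending on the library. *Zfp296* itself had 31 and 31 counts in the libraries labelled WT and 416 and 282 in those labelled KO2, or 11.6 and 7.33 compared to 52.8 and 37.7 CPM. This is the opposite of a loss of the transcript (log2 fold change 2.31, standard error 0.28, adjusted p = 4.545e-05, edgeR, and 0.057 when genes with low counts were kept). A count over the whole gene cannot show a small edit in the first exon, so it does not check the label, and every direction below rests on the labels alone. Y-linked genes also differed, with at most 1 count in all in a library labelled WT and 4782 and 5199 counts in those labelled KO2. R1 is known as a male line, so the libraries labelled WT lacked the Y-linked RNA of the line they are labelled as, and those labelled KO2 had it. Whether the labels are right cannot be told from these counts. The Y-linked difference went with the groups, so what lies behind it cannot be told apart from the edit in any result below. ESC markers were present in all 4 libraries: the 8 markers, *Pou5f1* and *Nanog* among them, had a summed level of 5560 to 5886 CPM, and *Sox2* was the 1 marker that passed the test (873 and 806 compared to 483 and 489 CPM, adjusted p = 7.836e-05, edgeR, but 0.6204 with ERCC spike-in normalization).

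Of the 10 genes, *Fgfr2* rose in the libraries labelled KO2, by 8.28-fold, while no call was made for the other 6 genes with enough counts to be tested. *Fgf4* was the most highly expressed of the 10, and 3 genes did not pass the filter on low counts and were not tested. Of these, *Egr1* and *Spry4* had at most 4 counts in every library, and *Dusp6* had 15 and 6 counts in the libraries labelled WT and 4 and 2 in those labelled KO2. Among the 12883 genes tested over the whole transcriptome, 5.64% had an adjusted p under 0.05 (edgeR's quasi-likelihood test), 2.61% up and 3.04% down. With 1 of 7 tested genes called, the set therefore stood at 14.3%, which is a difference of a single gene. None of the 7 was called down by edgeR or by DESeq2, and 1 of them, *Etv5*, was lower at an unadjusted p under 0.05, which 9.81% of all tested genes passed upwards and 9.6% downwards. The values of the 2 groups did not overlap for 5 of the 7, compared to 48.8% of all tested genes. KO2 was higher for 2 (25.4% of all tested genes) and lower for 3 (23.4%). *Dusp4*, 1 of the 2 higher genes, passed the filter on low counts only through the libraries labelled KO2, so it could be counted only as higher. *Dusp6* was lower in KO2 without overlap, but it did not pass the filter and is not among the 7. At these numbers of genes the counts say little about the set.

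**Figure D1:**
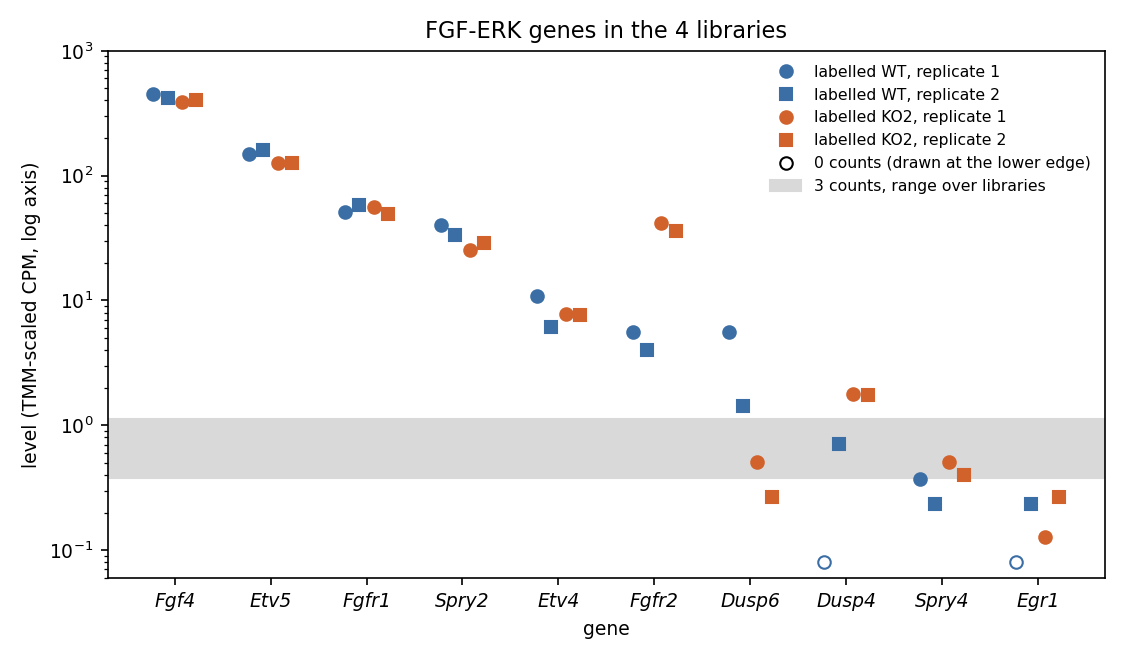
Level of each of the 10 FGF-ERK genes (TMM-scaled CPM, log axis) in the libraries labelled WT (blue) and KO2 (orange), with replicate 1 as circles and replicate 2 as squares, and open symbols at the lower edge for 0 counts. *Fgfr2* lies at 5.59 and 4.02 CPM in the libraries labelled WT and at 41.5 and 35.8 CPM in those labelled KO2, while *Spry4* and *Egr1* lie in or below the grey band of 3 counts.

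*Fgf4* (ENSMUSG00000050917, plus strand, chr7:152047291-152051148, mm9) encodes the FGF ligand that ESCs secrete. It had 1202 and 1773 counts in the libraries labelled WT and 3084 and 3018 in those labelled KO2, or 448 and 419 compared to 391 and 403 CPM. Both libraries labelled KO2 were slightly below both labelled WT (log2 fold change -0.13, standard error 0.10, 95% interval -0.34 to 0.09, adjusted p = 0.5665, edgeR). The interval thus leaves room for a fall to 0.787 of the level and for a rise to 1.07 of it. Per length of annotated exon, *Fgf4* made up 92.3% to 95.1% of the summed level of all 22 FGF ligand genes in each library. The next ligand was *Fgf10* in 3 libraries and *Fgf3* in WT replicate 2, at 2.17% to 2.71%. Of the 22 ligands, 5 passed the filter on low counts and none was called by edgeR or DESeq2. At an unadjusted p under 0.05 in edgeR, 1 (*Fgf11*) was lower in KO2, compared to 9.6% of all tested genes. *Fgf11* passed the filter only through the libraries labelled WT, so it could enter the test only as a fall. The median log2 fold change of the 5 was -0.72. *Fgf5*, a ligand of the primed epiblast, had no count in any of the 4 libraries, which allows a level of up to 0.380 to 1.12 CPM.

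*Fgfr1* (ENSMUSG00000031565, plus strand, chr8:26624126-26686186) and *Fgfr2* (ENSMUSG00000030849, minus strand) encode receptor tyrosine kinases for FGFs. *Fgfr1* had 137 and 246 counts in the libraries labelled WT and 441 and 368 in those labelled KO2, or 51.1 and 58.1 compared to 55.9 and 49.2 CPM. The groups overlapped, and the log2 fold change was -0.06 (standard error 0.17, 95% interval -0.41 to 0.29, adjusted p = 0.892, edgeR), which leaves room for changes between 0.750 and 1.22 of the level. It shares 125 bases of exon with the antisense gene *Gm16159*, and the strand setting of the counting is not given. *Fgfr2* had 15 and 17 counts in the libraries labelled WT and 327 and 268 in those labelled KO2, or 5.59 and 4.02 compared to 41.5 and 35.8 CPM. Both libraries labelled KO2 were far above both labelled WT (log2 fold change 3.05, standard error 0.31, 95% interval 2.40 to 3.70, adjusted p = 5.346e-06, edgeR). Of all tested genes, 22 (0.171%) were called up with a fold change at least as large. *Fgfr2* stayed called under all 11 alternatives, which included leaving out each library in turn, with log2 fold changes between 2.79 and 3.26. In bulk RNA, more cells that express a gene and more RNA per cell cannot be told apart.

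**Figure D2:**
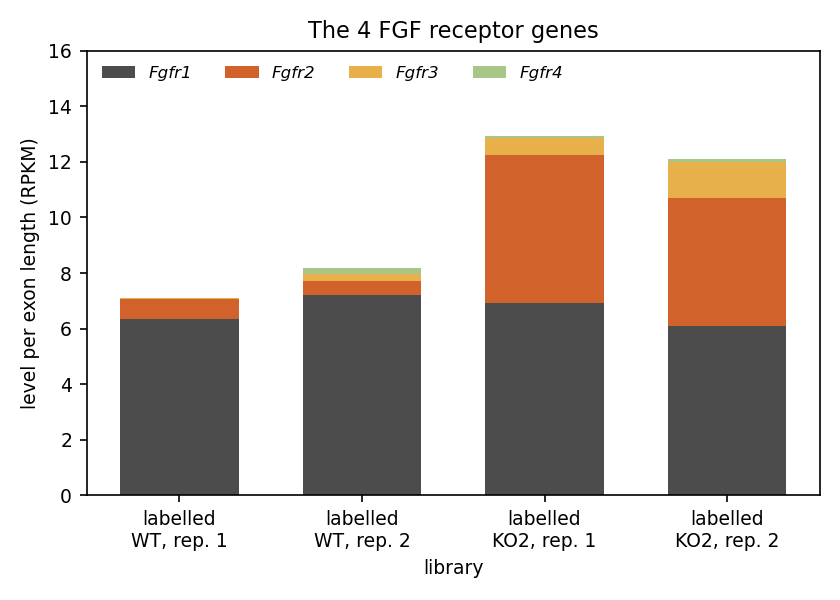
Stacked levels of *Fgfr1* to *Fgfr4* per exon length (RPKM) in each library. The *Fgfr1* part is similar in the 4 bars, while *Fgfr2* takes 10.1% and 6.31% of the summed level in the libraries labelled WT and 41.2% and 38.0% in those labelled KO2.

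Together, the 4 FGF receptor genes had a summed level of 7.11 and 8.17 RPKM (CPM per kb of exon) in the libraries labelled WT and of 12.9 and 12.1 RPKM in those labelled KO2. *Fgfr1* exceeded *Fgfr2* by 8.83-fold and 14.0-fold in the former and by 1.30-fold and 1.33-fold in the latter. *Fgfr1* thus remained the larger of both, and the share of *Fgfr2* in the summed level went from 10.1% and 6.31% to 41.2% and 38.0%. *Fgfr3*, named here after its values were seen, had 1 and 7 compared to 32 and 66 counts. It passed the filter on low counts only through the libraries labelled KO2, so it could enter the test only as a rise. It did not pass the threshold (log2 fold change 2.45, standard error 0.76, adjusted p = 0.06852, edgeR). It was called when KO2 replicate 1 was left out (2.91, adjusted p = 0.01951, edgeR) and with the replicate block (2.60, adjusted p = 0.01199, edgeR), but not when any other library was left out (adjusted p = 0.1253 to 0.376, edgeR). These alternatives for *Fgfr3* and *Dnmt3b* were added after their values were seen. *Fgfr4* had at most 3 counts in a library. In the mm9 annotation at hand, 1 of the 29 *Fgfr2* transcripts reads through to *Ctbp2* and shares 314 bases of exon with it, and the splice forms of the receptors, which set ligand preference, cannot be told apart from gene counts.

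RNA of other cell types that use *Fgfr2* was looked for beside this result. The 8 primitive endoderm markers had a summed level of 10.4 and 3.07 CPM in the libraries labelled WT and of 7.99 and 7.62 CPM in those labelled KO2. Of these, *Sox17*, *Sox7*, *Foxa2* and *Cubn* had at most 3 counts in any library. *Gata6* had 0 and 1 compared to 2 and 8 counts and was not tested. *Gata4* had 7 and 3 compared to 25 and 10 counts, and *Dab2* 14 and 0 compared to 24 and 25. In CPM the groups overlapped for both. *Pdgfra* went the other way, at 2.24 and 2.13 compared to 1.14 and 1.20 CPM. None of these 3 tested markers was called, and their median log2 fold change was 0.62. The 8 trophoblast markers had 4.47 and 8.03 compared to 4.82 and 12.3 CPM, and most of this sum was *Eomes* in 3 libraries, at 2.61 and 6.85 compared to 2.03 and 6.68 CPM. *Eomes* was the 1 trophoblast marker with enough counts to be tested and was not called (adjusted p = 0.8778, edgeR). Of the others, *Cdx2* had 0 and 0 compared to 2 and 8 counts, *Elf5* 0 and 0 compared to 9 and 5, *Krt7* 0 and 0 compared to 1 and 12, *Hand1* 1 and 0 compared to 4 and 8, and *Ascl2* 0 and 1 compared to 1 and 7. *Gata3* had 4 and 4 compared to 5 and 2 counts. Scaled for depth it went the other way, with 1.49 and 0.945 compared to 0.634 and 0.267 CPM. *Plac1* had no count. The part of these cells in the *Fgfr2* result was not tested. The 8 fibroblast markers summed to 7.08 and 12.5 compared to 4.06 and 6.15 CPM, most of it *Fbln2*, the 1 tested member, which was not called (adjusted p = 0.3198, edgeR), while *Dcn*, *Lum* and *Postn* had no count. The 7 primed epiblast markers summed to 80.9 and 78.5 compared to 102 and 96.9 CPM, most of it *Otx2*, and *Nkx1-2* was called down from 5 and 11 to 2 and 0 counts (adjusted p = 0.04957, edgeR), a call that held under 2 of 7 alternatives. *Nkx1-2* passed the filter on low counts only through the libraries labelled WT, so it could enter the test only as a fall. *Dnmt3b*, named here after its values were seen, had 31.3 and 12.5 compared to 39.3 and 33.4 CPM and was not called (log2 fold change 0.81, adjusted p = 0.1243, edgeR). It was called without WT replicate 1 (1.54, adjusted p = 0.01624), without KO2 replicate 2 (0.95, adjusted p = 0.02372) and with the replicate block (0.85, adjusted p = 0.01859), and stood at 0.22 without WT replicate 2 (adjusted p = 0.6591, edgeR). With all libraries and group as the only term, no other marker of these 4 lists was called by edgeR, and none by DESeq2.

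The sequences upstream of *Fgfr2* and *Fgf4* are shown as those of the gene that changed and of the gene with the highest level, and that of *Dusp6* as a well-known ERK target with lower counts in the libraries labelled KO2. They are the 250 bases before a RefSeq start site in GRCm38.p6, a later build than mm9. Capitals mark GGAAG, a form of the ETS core, and the GC box GGGCGG on either strand. The letters GGAA followed by another base were neither marked nor counted. RefSeq windows were at hand for 5 of the 10 genes, and *Fgfr1*, *Spry4*, *Dusp4*, *Etv4* and *Egr1* had none.
Fgfr2, chr7:130266809-130267058, minus strand: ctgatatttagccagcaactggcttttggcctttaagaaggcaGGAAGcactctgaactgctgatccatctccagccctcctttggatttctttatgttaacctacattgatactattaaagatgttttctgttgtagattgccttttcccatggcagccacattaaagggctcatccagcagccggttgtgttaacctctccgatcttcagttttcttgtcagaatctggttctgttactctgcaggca
Fgf4, chr7:144861136-144861385, plus strand: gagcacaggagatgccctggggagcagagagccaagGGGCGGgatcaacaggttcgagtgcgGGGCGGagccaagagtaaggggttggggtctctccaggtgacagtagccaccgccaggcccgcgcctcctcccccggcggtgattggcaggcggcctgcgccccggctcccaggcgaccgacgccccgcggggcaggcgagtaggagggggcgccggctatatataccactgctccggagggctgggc
Dusp6, chr10:99262981-99263230, plus strand: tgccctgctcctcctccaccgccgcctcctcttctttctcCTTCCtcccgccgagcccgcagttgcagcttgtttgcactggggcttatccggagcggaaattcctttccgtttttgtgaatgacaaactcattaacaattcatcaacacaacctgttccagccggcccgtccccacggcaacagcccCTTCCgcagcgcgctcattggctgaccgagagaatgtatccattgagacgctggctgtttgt

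The *Fgfr2* window held 1 GGAAG and no GC box, the *Fgf4* window 2 GC boxes and no GGAAG, and the *Dusp6* window 2 GGAAG and no GC box. Over all 32851 RefSeq windows of the same 250 bases, 64.1% held GGAAG and 32.7% the GC box. The *Fgf4* window had a GC content of 71.2%, compared to 56.4% for *Dusp6* and 44.0% for *Fgfr2*. Neither the letters TATAAA, a form of the TATA box found in 12.4% of all windows, nor the telomere-type repeat TTAGGG, found in 9.32%, were present in the 3 windows. Other forms of the TATA box were not searched for, and the *Fgf4* window holds the run tatatata, which was not counted. These are matches of letters, and no binding was measured here.

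*Spry2* (ENSMUSG00000022114, minus strand, chr14:106291166-106296036) and *Spry4* (ENSMUSG00000024427, minus strand, chr18:38745922-38760922) encode Sprouty proteins, which dampen receptor tyrosine kinase signals upstream of ERK. *Spry2* had 107 and 141 counts in the libraries labelled WT and 201 and 215 in those labelled KO2, or 39.9 and 33.3 compared to 25.5 and 28.7 CPM. Both libraries labelled KO2 were below both labelled WT, but the difference did not pass the threshold (log2 fold change -0.42, standard error 0.21, 95% interval -0.86 to 0.02, adjusted p = 0.2832, edgeR). *Spry4* had 1 and 1 compared to 4 and 3 counts, or 0.373 and 0.236 compared to 0.507 and 0.401 CPM. At these counts no difference was detectable. The pooled ratio was 1.58 with an exact 95% interval of 0.30 to 15.5, which covers counting error only.

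*Dusp6* (ENSMUSG00000019960, plus strand, chr10:98725865-98730122) and *Dusp4* (ENSMUSG00000031530, plus strand, chr8:35870351-35882948) encode phosphatases that remove the activating phosphates from ERK, in the cytoplasm and in the nucleus, respectively. *Dusp6* had 15 and 6 counts in the libraries labelled WT and 4 and 2 in the more deeply sequenced libraries labelled KO2, or 5.59 and 1.42 compared to 0.507 and 0.267 CPM. The groups did not overlap, and the replicates labelled WT differed widely between themselves. *Dusp6* did not pass the filter on low counts. When all genes with at least 1 count were tested, its log2 fold change was -2.88 (adjusted p = 0.3748, unadjusted p = 0.01925, edgeR). The pooled level was 7.78-fold lower in KO2, with an exact 95% interval of 3.04 to 23.5 for counting error only. *Dusp4* had 0 and 3 counts in the libraries labelled WT and 14 and 13 in those labelled KO2, or 0 and 0.709 compared to 1.78 and 1.74 CPM. Its direction was thus opposite to that of *Dusp6*, with a pooled ratio of 4.05 (exact 95% interval 1.25 to 20.9, counting error only). It was not called (log2 fold change 1.97, standard error 1.11, adjusted p = 0.3468, edgeR), and without WT replicate 2, which alone of the WT libraries held any *Dusp4* count, the log2 fold change became 6.42 (adjusted p = 0.3241, edgeR).

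*Etv5* (ENSMUSG00000013089, minus strand, chr16:22381382-22439792) and *Etv4* (ENSMUSG00000017724, minus strand, chr11:101631056-101646685) encode ETS transcription factors of the PEA3 group, and *Egr1* (ENSMUSG00000038418, plus strand, chr18:35020861-35024638) encodes a zinc finger factor that is induced within minutes of ERK activation. *Etv5* had 403 and 677 counts in the libraries labelled WT and 991 and 935 in those labelled KO2, or 150 and 160 compared to 126 and 125 CPM. The difference was small and was larger than the spread between replicates, but it did not pass the threshold after adjustment (log2 fold change -0.31, standard error 0.12, 95% interval -0.57 to -0.05, adjusted p = 0.1694, edgeR). *Etv4* had 29 and 26 compared to 61 and 57 counts, or 10.8 and 6.14 compared to 7.74 and 7.62 CPM. The values of KO2 lay between those of WT, and the log2 fold change was -0.07 (standard error 0.42, 95% interval -0.96 to 0.82, adjusted p = 0.9505, edgeR). *Egr1* had 0 and 1 counts in the libraries labelled WT and 1 and 2 in those labelled KO2, all below 3 counts, so that no fold change is given. Like *Spry4*, *Egr1* was near the lower limit in every library.

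**Figure D3:**
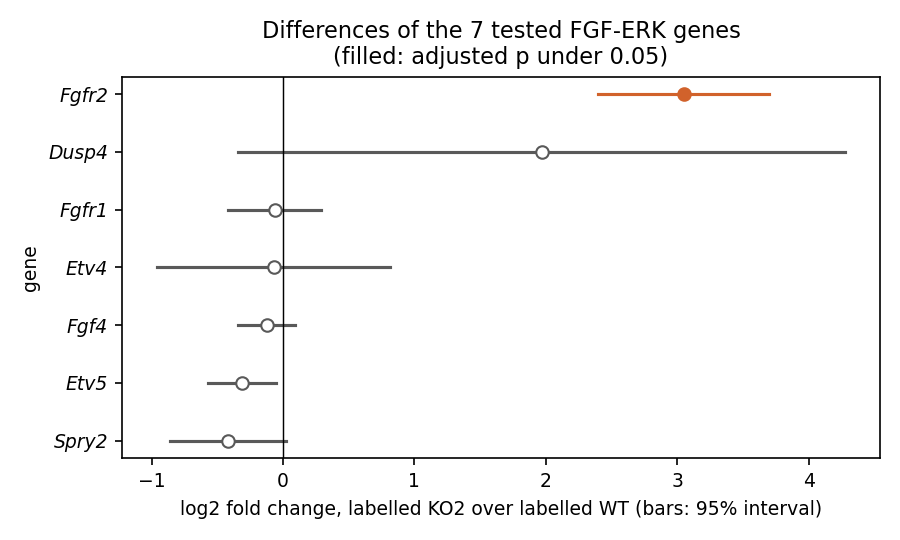
Log2 fold change between the libraries labelled KO2 and those labelled WT for the 7 FGF-ERK genes that passed the filter on low counts, with 95% intervals from edgeR. *Fgfr2* is the only filled point, at 3.05, while the intervals of *Dusp4*, *Fgfr1*, *Etv4*, *Fgf4* and *Spry2* include 0 and that of *Etv5* ends at -0.05 without passing the adjusted threshold.

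Per length of exon, the order of the mean levels in the libraries labelled WT was *Fgf4* (143 RPKM), *Etv5* (37.8), *Spry2* (17.6), *Fgfr1* (6.77), *Etv4* (2.73), *Dusp6* (1.25) and *Fgfr2* (0.616), followed by *Dusp4*, *Spry4* and *Egr1* at 3 or fewer counts. *Dusp6* overlapped with both of its neighbours in this order, *Etv4* and *Fgfr2*, and the first 5 genes did not overlap with each other. In the libraries labelled KO2, *Fgf4* (131 RPKM), *Etv5* (30.5), *Spry2* (13.0) and *Fgfr1* (6.52) held the same places. *Fgfr2* came next at 4.96 RPKM, above *Etv4* at 2.47, *Dusp4* at 0.641 and *Dusp6* at 0.139 RPKM. *Fgfr2* did not overlap with either of its neighbours there. *Etv5* and *Spry2*, both known targets of the pathway, were thus at 12.2 RPKM or more in every library, while *Dusp6*, *Spry4* and *Egr1* were at or below 2.00 RPKM in all 4 libraries.

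The wider pathway was read from 5 lists with 122 genes in all, of which 121 were found in the files (*Spry3* was not matched) and 87 were tested. Including *Fgfr2*, 6 were called up and 1 down, or 8.05% of the tested genes, compared to the 5.64% of the whole transcriptome. The lists were chosen with earlier results of these data known, so these shares only describe the lists. Without the 10 genes above, 5 of 80 were called up and 1 down (7.5%). The median log2 fold change over the 87 genes was 0.03, compared to 0.01 over all tested genes. Each list had at most 3 calls. Without the filter on low counts *Fgfr2* was the 1 pathway gene called, and with ERCC spike-in normalization *Fgfr2* and *Dusp9* were.

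Among the receptors and their heparan sulphate co-receptors, 3 of 22 tested genes were called up and none down (edgeR), with 1 up and none down by DESeq2. The share called by edgeR was 13.6%, all up, compared to 5.64% of all tested genes, of which 2.61% were up. At an unadjusted p under 0.05, 5 were up and 4 down in edgeR, compared to 9.81% and 9.6% of all tested genes. *Fgfrl1*, which encodes an FGF receptor without a kinase domain, had 8 and 36 counts in the libraries labelled WT and 142 and 112 in those labelled KO2. At 2.98 and 8.51 compared to 18.0 and 14.97 CPM it was higher in both libraries labelled KO2 (log2 fold change 1.40, standard error 0.40, adjusted p = 0.0473, edgeR). It was close to the threshold and was no longer called without WT replicate 1 (0.95, adjusted p = 0.2183), without KO2 replicate 1 (1.25, adjusted p = 0.1332) or with DESeq2 (adjusted p = 0.1124), and reached 2.46 without WT replicate 2 (adjusted p = 0.022, edgeR). *Gpc1*, a heparan sulphate proteoglycan of the cell surface, had 5 and 13 compared to 70 and 76 counts, or 1.86 and 3.07 compared to 8.88 and 10.2 CPM. Its log2 fold change was 1.87 (standard error 0.52, adjusted p = 0.04207, edgeR), and the call was lost whenever any 1 library was left out (adjusted p = 0.06603 to 0.1591, edgeR) and with DESeq2 (adjusted p = 0.1008).

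Of the 22 genes that carry the signal from the receptor to ERK, all were tested and *Gab1* was the 1 gene called by edgeR, with none by DESeq2. The share called by edgeR was 4.55%, compared to 5.64% of all tested genes. At an unadjusted p under 0.05, 5 were up and 2 down in edgeR, compared to 9.81% and 9.6% of all tested genes. *Gab1*, a docking protein that recruits the phosphatase SHP2 to receptors, had 96.5 and 116 CPM in the libraries labelled WT and 162 and 143 CPM in those labelled KO2. The rise was 1.43-fold (log2 fold change 0.51, standard error 0.14, adjusted p = 0.03226, edgeR). The call was lost without WT replicate 1 (adjusted p = 0.2127), without KO2 replicate 1 (adjusted p = 0.2084) and with DESeq2 (adjusted p = 0.05404). The list had a median log2 fold change of 0.01.

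Of the 27 negative regulators, 21 were tested, 1 was called up and 1 down, with a median of -0.02. The share called was 9.52%, compared to 5.64% of all tested genes. At an unadjusted p under 0.05, 1 was up and 2 were down in edgeR, compared to 9.81% and 9.6% of all tested genes. *Dusp9*, an ERK phosphatase of the same family as *Dusp6*, had 18 and 29 counts in the libraries labelled WT and 184 and 228 in those labelled KO2. It rose from 6.71 and 6.85 to 23.3 and 30.5 CPM, by 3.95-fold (log2 fold change 1.98, standard error 0.32, adjusted p = 0.0008552, edgeR). *Spred1*, a Sprouty-related inhibitor that brings neurofibromin to RAS, fell from 71.5 and 78.2 to 35.1 and 39.7 CPM, by 2.01-fold (log2 fold change -1.01, standard error 0.17, adjusted p = 0.0009391, edgeR). Both calls were also made by DESeq2 and in each fit without 1 library. *Dusp9* was not called when genes with low counts were kept (adjusted p = 0.07798), and *Spred1* neither then (adjusted p = 0.09802) nor with ERCC spike-in normalization (adjusted p = 0.2022, edgeR).

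Of the 25 ETS factors and immediate early genes, 17 were tested and *Jund* was the 1 gene called, with a median log2 fold change of 0.22 over the list. The share called was 5.88%, compared to 5.64% of all tested genes. At an unadjusted p under 0.05, 2 were up and 3 down in edgeR, compared to 9.81% and 9.6% of all tested genes. *Jund*, a subunit of the AP-1 factor, rose from 20.1 and 29.3 to 52.1 and 45.6 CPM, by 1.93-fold (log2 fold change 0.95, standard error 0.21, adjusted p = 0.01094, edgeR). It was also called by DESeq2 (adjusted p = 0.02657) and was lost without WT replicate 1 (0.74, adjusted p = 0.1058, edgeR). *Egr2*, *Egr3* and *Fosb* had at most 1 count in a library. *Fos*, named here after its values were seen, had 1 and 3 compared to 22 and 27 counts and did not pass the threshold (log2 fold change 2.42, standard error 0.89, adjusted p = 0.1302, edgeR). It passed the filter on low counts only through the libraries labelled KO2, so it could enter the test only as a rise.

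**Figure D4:**
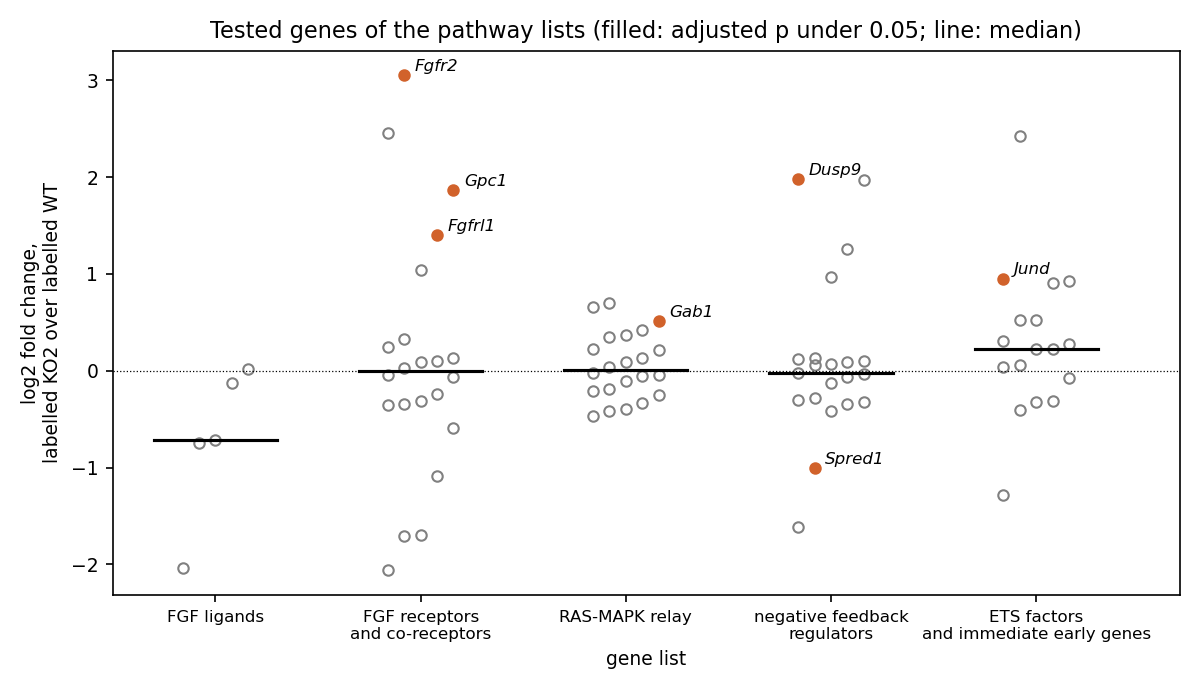
Log2 fold change between the libraries labelled KO2 and those labelled WT for the 87 tested genes of the 5 pathway lists, with the median of each list as a line. Filled points mark the 7 called genes, from *Fgfr2* at 3.05 to *Spred1* at -1.01, and the medians lie between -0.02 and 0.22 except for the 5 tested ligands, at -0.72.

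**Figure D5:**
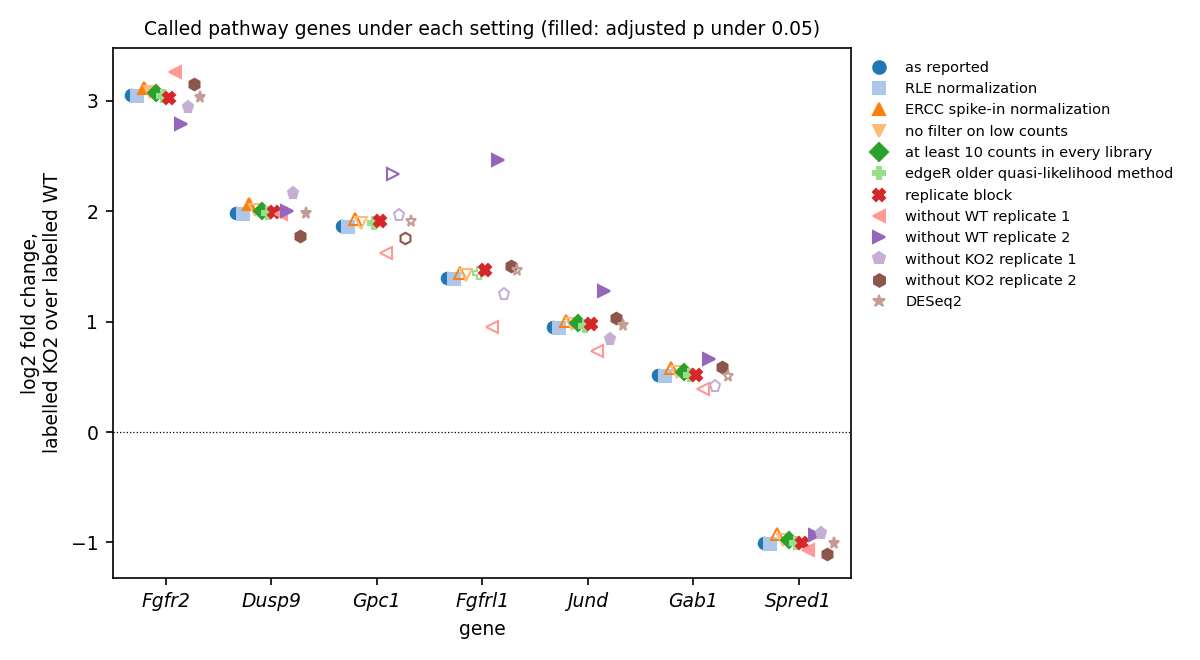
Log2 fold change of the 7 called pathway genes under the reported fit and each alternative in which they were tested. Filled symbols mark an adjusted p under 0.05: *Fgfr2* is filled throughout, *Dusp9* is open only without the filter on low counts, and *Gpc1*, *Fgfrl1* and *Gab1* are open in 7, 6 and 5 of the alternatives.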

How the data were processed

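RNA-seq of 2 libraries labelled WT and 2 labelled KO2 was analysed. According to the methods, RNA was isolated in duplicate, ribosomal RNA was depleted and strand-specific libraries were made. HTSeq counted the reads after hisat2 alignment to the mm9 genome. Its raw counts per gene are what the authors deposited, and tool versions, annotation and strand setting are not given in the sources used here. The submitters' processing notes also name DESeq2. HTSeq's 5 summary rows (52.9% to 58.8% of all counts) and 92 ERCC rows were left out of the tests. Symbols, coordinates and exon lengths came from GENCODE M1 (NCBIM37). It holds 32782 of the 48526 gene identifiers in the files, so the reads were counted with another annotation. Exon lengths and overlaps may therefore differ from those used in the counting. RPKM is CPM divided by the union of exons.

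Genes were kept with filterByExpr (minimum count 10, minimum total 15), normalized by TMM and tested with edgeR 4.0.16 (R 4.3.3, quasi-likelihood test, group as the only term, Benjamini-Hochberg over all tested genes, threshold 0.05). Standard errors were derived from the F statistic. An exact permutation test of 2 against 2 libraries cannot reach the threshold, and p-values measure the spread between these libraries. Replicates differed beyond counting noise (chi-square per gene 5.92 in WT and 21.3 in KO2) and counted as separate. Such a spread cannot show that they were separate cultures, and the methods say only that RNA was isolated in duplicate. The members and lists were chosen with earlier results of these data known. Named genes were the 10 members, *Zfp296* and the called genes of the lists. Alternatives were RLE and ERCC normalization, no filter, 10 counts in every library, the older quasi-likelihood method, DESeq2 1.42.0, the replicate number as a block and leaving out each library. With 1 library left in a group, it was assumed to vary like the other group.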

Additional observations from a re-analysis of the deposited data

How the results depend on the processing

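*Fgfr2* was called under all 11 alternatives, and no other member was called under any. The total of 727 called genes (336 up, 391 down) became 163 (90 up, 73 down) with ERCC spike-in normalization, 61 (29 and 32) without the filter on low counts, 456 (192 up) with DESeq2, and 270 to 691 (122 to 341 up, 148 to 350 down) with 1 library left out. The 6 pathway genes called up became 2 with ERCC normalization, 1 without the filter, 3 with DESeq2 and 2 to 5 with 1 library left out. The 1 called down (*Spred1*) became 0 with ERCC normalization and without the filter, and 2 with RLE normalization, 10 counts in every library or the replicate block, and 1 to 2 with 1 library left out, in each case by the addition of *Gpc3*, a glypican named after its values were seen. Log2 fold changes near 0 changed sign for *Fgfr1*, to 0.0040 with ERCC normalization, 0.0421 without WT replicate 2 and 0.0198 without KO2 replicate 2 (-0.1570 to 0.0421 with 1 library left out), and for *Etv4*, to 0.0036 with ERCC normalization and 0.3207 without WT replicate 1 (-0.4920 to 0.3207). The cause was not tested.

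The same replicate numbers occur in both groups, but nothing says that they pair the libraries, and deviations of same-numbered libraries correlated at -0.006583 across genes. With the replicate block, 950 genes were called (476 up, 474 down), and *Fgfr2* stayed at 3.02. The pathway genes called up became 7 with the block, by the addition of *Fgfr3* (2.60). Counts were low for some members: *Spry4*, *Dusp6* and *Egr1* were untested, and *Dusp4* rested on 3 counts in WT.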
